A study of Mus musculus with 16 samples.

Results

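The genes described here encode the proteasome: 45 genes of the 12393 measured, taken as every gene whose symbol starts with Psm and one of the letters a to g followed by a digit and whose probe set on the array names that symbol alone. The immunoproteasome genes Psmb8, Psmb9 and Psmb10 were left out by that rule and are given among the related genes. By role the 45 were 7 beta subunits and 8 alpha subunits of the 20S core, 6 ATPases and 14 other genes of the 19S regulatory particle, 4 chaperones of 20S assembly, 4 activators and inhibitors, and 2 genes whose symbols fit the pattern but whose products are binding partners and not subunits, Psmc3ip and Psme3ip1. Without those 2 there are 43. Psme2, a subunit of an activator, shared its only probe set with Psme2b and was not tested. Where a gene had several probe sets, which was the case for 21 of the 45, the brightest on average was used.

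The proteasome degrades proteins that carry ubiquitin chains. Its 20S core is a barrel in which beta subunits form the inner rings and hold the proteolytic sites, and alpha subunits form the outer rings that gate the entrance. The 19S particle caps the barrel, recognises ubiquitin, removes it and feeds the unfolded protein into the core, and dedicated chaperones assemble each piece. Oxidants damage proteins, and the genes of proteasome subunits are known to be induced together by the transcription factor Nfe2l1 when proteasome activity is short.

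RNA of lung was measured on 16 arrays, 1 array per mouse. The extraction protocol names the left lung, while the sample titles name the whole lung. The 4 groups were adiponectin-deficient mice in ozone, adiponectin-deficient mice in air, wildtype mice in ozone and wildtype mice in air, with 4 mice each, 2 males (M1, M2) and 2 females (F1, F2). Ozone was given at 0.3 ppm for 72 h and the mice in air breathed room air for as long. The strain label is C57BL/6 for the wildtype mice, the deficiency is described as genetic with no allele named, and the mean age was 14 weeks. Adiponectin is a hormone secreted by fat cells. The comparisons were ozone against air in each genotype, deficient against wildtype in each exposure, the difference of the ozone differences, and males against females.

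Levels are log2 of the deposited intensity, and differences are log2 differences ± SE from limma fitted across all 12393 genes with sex as a term. A gene was called at an adjusted p (Benjamini-Hochberg over all genes) under 0.05. Levels of different probe sets are not comparable, so each gene is set only against itself.

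Array medians lay between 145.9 and 153.7 intensity units. Adipoq, the adiponectin gene, had log2 levels of 6.07 to 8.82 in deficient and 7.19 to 11.52 in wildtype mice, so that the ranges overlapped. Deficient minus wildtype was -1.8 (p = 0.0042, exact permutation, two-sided, n = 8 each). The 8.82 was that of deficient air F2, and the next highest deficient array was at 6.97. The 11.52 was that of wildtype air F1. These arrays also had the highest levels of the fat marker Fabp4, at 12.26 in deficient air F2 and 11.78 in wildtype air F1. The 8 lung markers had summed intensities of 88952 to 98490 in deficient and 91698 to 102756 in wildtype arrays, which fits the labelled tissue. Among air arrays, some stood apart by markers of other tissues: 6 striated muscle markers summed to 549 to 719 in deficient ozone against 603 to 23811 in deficient air, 4 squamous markers to 151 to 12118 in deficient air, and 4 fat markers to 760 to 5457 in deficient air and 457 to 4112 in wildtype air. Those arrays were wildtype air F1, deficient air M2 and deficient air F2, and results without them are given below. Among ozone arrays wildtype ozone M2 stood apart by leukocyte markers: the 10 summed to 6017 to 8076 in deficient ozone against 4718 to 8754 in deficient air, and to 3062 to 38570 in wildtype ozone against 5597 to 10847 in wildtype air. That array had log2 levels of 14.31 for S100a9, 13.68 for S100a8 and 7.01 for Itgam, above the other wildtype ozone arrays (9.12 to 9.21, 9.44 to 9.60 and 4.69 to 5.07). Of the 10 markers 0 were higher and 1 lower with ozone in deficient mice, where 15.8% of all genes were higher and 14.6% lower. In wildtype mice 0 were higher and 2 lower, where 19.6% of all genes were higher and 17.1% lower. With 10 markers such counts are coarse. For wildtype ozone F1 the free description reads room air but the other labels read ozone, and the array was analysed as ozone.

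Start-site sequences of 4 core genes are shown because the transcription factors of the Nfe2l family are known to bind the antioxidant response element, whose core letters TGACNNNGC were searched on both strands from 250 bases before to 50 after each start in RefSeq's table for GRCm38.p6. The 100 bases before the start are printed 5′ to 3′ on the gene's strand, with any TGACNNNGC in capitals.
Psmb5, chr14:54617996-54618095, minus strand: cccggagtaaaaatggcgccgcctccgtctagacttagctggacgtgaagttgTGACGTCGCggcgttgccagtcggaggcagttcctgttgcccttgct
Psmb6, chr11:70525257-70525356, plus strand: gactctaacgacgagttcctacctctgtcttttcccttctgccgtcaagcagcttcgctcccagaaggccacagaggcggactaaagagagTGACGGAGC
Psmb3, chr11:97703334-97703433, plus strand: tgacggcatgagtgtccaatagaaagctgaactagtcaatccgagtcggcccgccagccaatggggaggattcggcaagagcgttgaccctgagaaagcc
Psma4, chr9:54950759-54950858, plus strand: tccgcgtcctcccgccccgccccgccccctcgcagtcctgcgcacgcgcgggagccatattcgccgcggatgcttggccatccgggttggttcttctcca
The match lay at positions -47 to -39 before the start used here in Psmb5 and -9 to -1 in Psmb6. RefSeq's gene table for the same build begins Psmb6 at 70525324 and Psma4 at 54950781, inside the printed stretches. By those starts the Psmb6 match and most of the Psma4 stretch lie within the gene and not before it. The table of starts that was searched held 37 of the 45 genes. Of these 6 had TGACNNNGC (Psmb5, Psmb6, Psmc6, Psmd9, Psmd12 and Psme4), and 12.4% of all 32851 windows in that table had it. That share is of single windows, while a member counted if any of its windows had the letters. By role, 2 of 4 beta, 0 of 7 alpha, 1 of 5 ATPase and 2 of 12 other 19S genes in the table had it. So did 0 of 3 chaperones, 1 of 4 activators and inhibitors and 0 of 2 binding partners. Psmb5 and Psmb6 were called for ozone in both genotypes, Psmd9 in deficient mice alone, and Psmc6, Psmd12 and Psme4 in neither. A link between the letters and the ozone differences was not tested. The related letters TGAGNNNGC, which differ at the fourth base so that no stretch matches both on one strand, stood in 17.6% of all windows and in 13 of the 37 genes. Those were 1 of 4 beta, 4 of 7 alpha, 2 of 5 ATPase and 4 of 12 other 19S genes, with 1 of 3 chaperones, 0 of 4 activators and inhibitors and 1 of 2 binding partners. The beta gene was Psmb3, with these letters at -10 to -2, inside its printed stretch and not in capitals. Psma4 had them at -127 to -119 and at 23 to 31, outside its printed stretch. Psma8, Psmb1, Psmb2, Psmb7, Psmc3, Psmd3, Psmd7 and Psmg2 had no entry in the table.

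Ozone was accompanied by higher levels of about as many proteasome genes in each genotype, and by no lower call. In deficient mice 22 of the 45 rose and 0 fell, where 15.8% of all genes rose and 14.6% fell. In wildtype mice 20 of the 45 rose and 0 fell, where 19.6% of all genes rose and 17.1% fell. The shares of members that rose were 48.9% in deficient and 44.4% in wildtype mice. The 20 that rose in wildtype mice all rose in deficient mice too, which is 90.9% of the 22, and the 2 others were Psmc3 and Psmd9. For all genes, 1532 rose in both genotypes, 78.4% of those that rose in deficient and 63.0% of those that rose in wildtype mice. Without Psmc3ip and Psme3ip1, 21 of 43 rose in deficient and 19 of 43 in wildtype mice. When the 3 air arrays with muscle, squamous or fat markers were left out, 18 rose in deficient mice, and 19 rose and 1 fell in wildtype mice, with all 7 beta genes among those that rose in each. Without wildtype ozone M2, the array high in leukocyte markers, 21 rose in deficient and 19 in wildtype mice, 0 fell in either, and all 7 beta genes rose in each. The shares of all genes called in these fits with arrays left out were not compared.

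Every ozone array lay above every air array for 21 members in deficient mice, against 15.4% of all genes, and for 18 in wildtype mice, against 17.1% of all genes. Every ozone array lay below every air array for 0 members in deficient mice (13.3% of all genes) and for 1, Psma4, in wildtype mice (14.2% of all genes). The median log2 difference of the 45 was 0.18 in deficient and 0.19 in wildtype mice, beside medians over all genes of 0.0120 in deficient and 0.0319 in wildtype mice. These are RNA levels of homogenised lung, in which fewer or more cells of a type and less or more RNA per cell cannot be told apart. All 7 proliferation markers measured rose in both genotypes, beside 15.8% of all genes in deficient and 19.6% in wildtype mice. Their summed intensities were 3039 to 4090 in deficient ozone against 512 to 543 in deficient air. In wildtype mice they were 2404 to 2987 in ozone against 462 to 528 in air. The part of cell division in the proteasome differences was not tested.

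**Figure D1:**
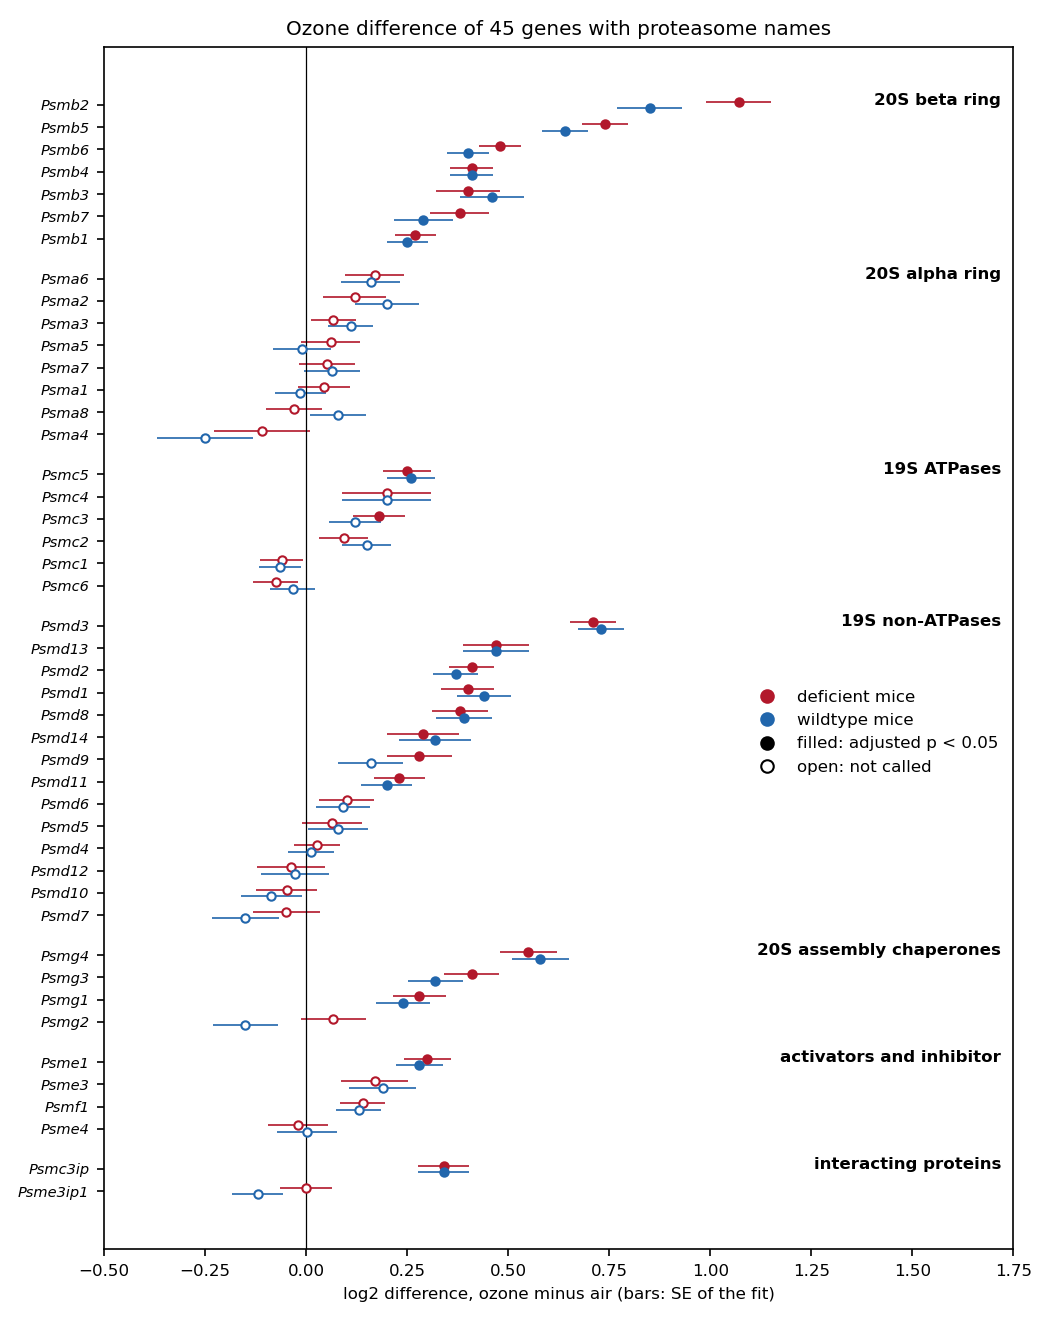
Log2 difference between ozone and air arrays for all 45 genes, grouped by role, with deficient mice in red and wildtype mice in blue, bars giving the SE of the fit and filled points a call at adjusted p under 0.05. All 7 beta genes are filled in both genotypes and all 8 alpha genes are open.

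The beta subunits were called as a complete set. All 7 rose in both genotypes, with differences of 0.27 to 1.07 in deficient mice and 0.25 to 0.85 in wildtype mice and a median of 0.41 in each, and for all 7 every ozone array lay above every air array of the same genotype. Over all genes 15.8% rose in deficient and 19.6% in wildtype mice. Every ozone array lay above every air array for 15.4% of all genes in deficient and 17.1% in wildtype mice. The 3 catalytic subunits come first.

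Psmb5, which carries the chymotrypsin-like site and is the main target of the drug bortezomib, had log2 levels of 10.76, 10.78, 10.79 and 10.88 in deficient ozone arrays (M1, M2, F1 and F2, the order used throughout) and 9.97, 10.16, 10.05 and 10.07 in deficient air. In wildtype mice Psmb5 stood at 10.87, 10.82, 10.78 and 10.76 in ozone and at 10.25, 10.13, 10.10 and 10.19 in air. The groups were far apart in both genotypes and the ozone arrays of deficient and wildtype mice covered the same range. The Psmb5 difference was 0.74 ± 0.0567 in deficient mice (1.67-fold, adjusted p = 3.75e-07, limma) and 0.64 ± 0.0567 in wildtype mice (1.56-fold, adjusted p = 2.09e-06, limma).

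Psmb6, which carries the caspase-like site, had levels of 10.70, 10.71, 10.70 and 10.70 in deficient ozone and 10.15, 10.24, 10.22 and 10.29 in deficient air. Its levels were 10.59, 10.65, 10.64 and 10.68 in wildtype ozone and 10.17, 10.26, 10.18 and 10.36 in wildtype air. The deficient ozone arrays were nearly identical, and both ozone groups stood clear of their air groups. The Psmb6 difference was 0.48 ± 0.0518 in deficient (adjusted p = 1.03e-05, limma) and 0.40 ± 0.0518 in wildtype mice (adjusted p = 6.06e-05, limma).

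Psmb7, which carries the trypsin-like site, had levels of 11.44, 11.35, 11.39 and 11.15 in deficient ozone and 10.93, 11.03, 10.76 and 11.08 in deficient air. Its levels were 11.26, 11.31, 11.30 and 11.32 in wildtype ozone and 11.04, 11.06, 11.02 and 10.92 in wildtype air. Deficient ozone F2 was the lowest ozone array and came close to the highest deficient air array, without overlap. The Psmb7 difference was 0.38 ± 0.0726 in deficient (adjusted p = 0.00102, limma) and 0.29 ± 0.0726 in wildtype mice (adjusted p = 0.00675, limma).

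Among the non-catalytic beta subunits, Psmb2 had the largest difference and Psmb1 the smallest. Psmb2 stood at 10.22, 10.23, 10.32 and 10.10 in deficient ozone and at 9.0, 9.17, 9.16 and 9.23 in deficient air. In wildtype mice it stood at 10.22, 10.01, 10.04 and 10.04 in ozone and at 9.46, 9.15, 9.18 and 9.14 in air. The groups lay widely apart, and M1 was the highest wildtype array within each exposure. The Psmb2 difference was 1.07 ± 0.0812 in deficient mice (2.11-fold, adjusted p = 3.36e-07, limma) and 0.85 ± 0.0812 in wildtype mice (1.8-fold, adjusted p = 4.28e-06, limma).

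Psmb1 had levels of 10.81, 10.78, 10.75 and 10.77 in deficient ozone and 10.60, 10.51, 10.46 and 10.48 in deficient air. Its levels were 10.74, 10.74, 10.59 and 10.61 in wildtype ozone and 10.45, 10.36, 10.42 and 10.46 in wildtype air. The groups were close but did not overlap. The Psmb1 difference was 0.27 ± 0.0507 in deficient (adjusted p = 0.00106, limma) and 0.25 ± 0.0507 in wildtype mice (adjusted p = 0.00162, limma). Psmb4 rose by 0.41 in both genotypes, and Psmb3 by 0.40 in deficient and 0.46 in wildtype mice.

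None of the alpha subunits was called for ozone in either genotype by limma with all arrays and the settings used throughout. Over all genes 15.8% rose and 14.6% fell in deficient mice, and 19.6% rose and 17.1% fell in wildtype mice. The differences ran between -0.11 and 0.17 in deficient mice and between -0.25 and 0.20 in wildtype mice, with medians of 0.0562 in deficient and 0.0714 in wildtype mice. At an unadjusted p under 0.05, 1 of the 8 was higher in deficient mice, where 40.5% of all genes passed in either direction, and 2 of the 8 in wildtype mice, where 46.3% of all genes passed. The missing calls do not show equal levels: for Psma2 in wildtype mice the difference was 0.20 ± 0.0784 with a 95% interval of 0.03 to 0.36 (adjusted p = 0.0606, limma), and for Psma6 in deficient mice it was 0.17 ± 0.0734 with an interval of 0.02 to 0.33 (adjusted p = 0.0859, limma). Psma2 was called in wildtype mice when wildtype air F2, deficient air M2 or wildtype ozone F2 was left out (limma adjusted p of 0.0208 to 0.0492), and Psma6 in deficient mice without deficient ozone F1 (limma adjusted p = 0.0497). Psma2 was also called in wildtype mice after the arrays were shifted to a common median (limma adjusted p = 0.0339) and with array weights (limma adjusted p = 0.0423).

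Psma1, the alpha gene with the smallest difference over both genotypes, had levels of 10.34, 10.28, 10.09 and 10.13 in deficient ozone and 10.25, 10.15, 10.08 and 10.20 in deficient air. Its levels were 10.03, 10.15, 10.15 and 10.12 in wildtype ozone and 10.15, 10.11, 10.05 and 10.20 in wildtype air. The groups overlapped throughout. The Psma1 difference was 0.0445 with a 95% interval of -0.09 to 0.18 in deficient mice. In wildtype mice it was -0.0144 with an interval of -0.15 to 0.12.

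Psma4, the alpha gene with the largest mean difference over both genotypes in size, pointed downward. It stood at 10.91, 10.75, 10.73 and 10.25 in deficient ozone and at 10.54, 10.76, 10.88 and 10.89 in deficient air, which overlapped. In wildtype mice it stood at 10.56, 10.70, 10.59 and 10.67 in ozone and at 10.91, 10.73, 10.97 and 10.90 in air, so that every ozone array was below every air array. The difference was -0.11 ± 0.119 in deficient (adjusted p = 0.542, limma) and -0.25 ± 0.119 in wildtype mice (adjusted p = 0.116, limma), and neither was called. Deficient ozone F2, at 10.25, was the lowest array but was not flagged by the outlier criterion used below. Without that array the wildtype difference of -0.25 was called (adjusted p = 0.0233, limma). It was also called in a fit of the wildtype arrays alone (adjusted p = 0.0257, limma). Psma8, an alpha subunit known from testis, had differences of -0.0302 in deficient and 0.0785 in wildtype mice.

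**Figure D2:**
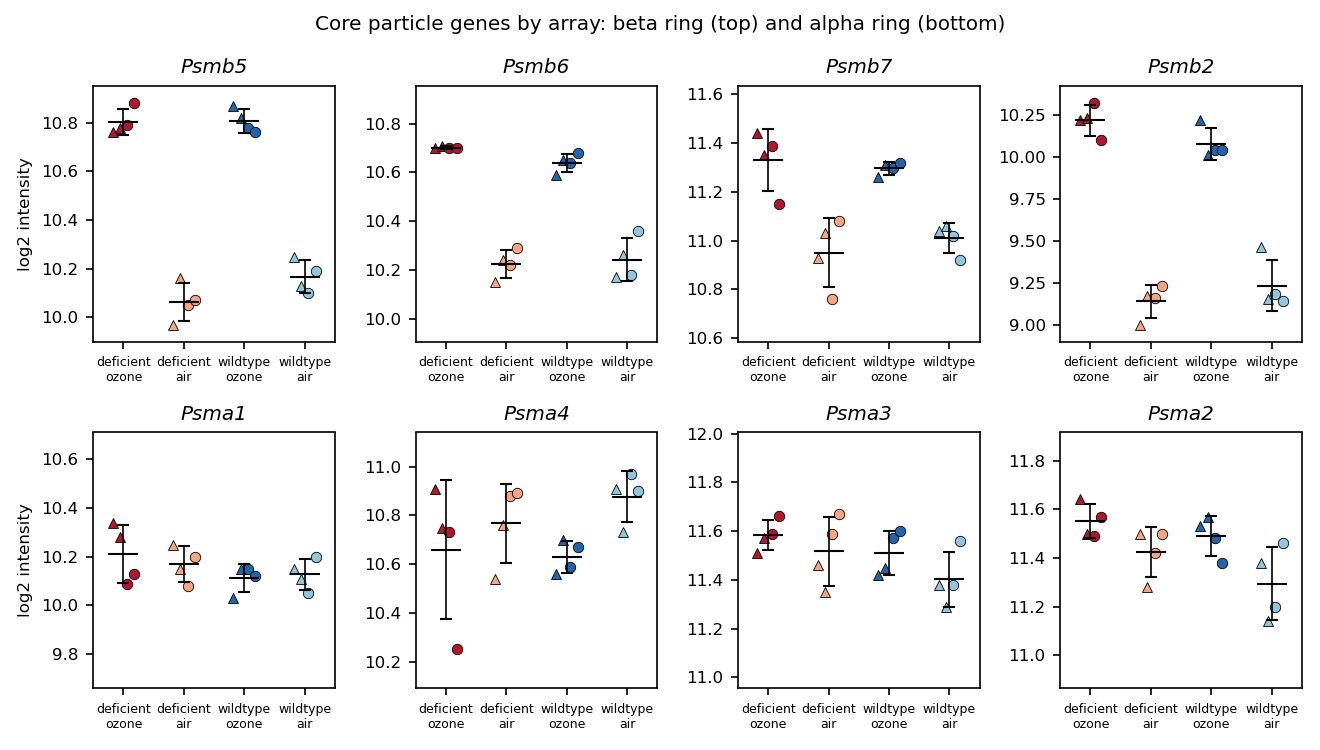
Log2 intensity of 4 beta genes (top) and 4 alpha genes (bottom) on each array, triangles for males and circles for females, with lines at group means and bars of 1 SD (n = 4). Ozone groups stand above air groups in the top row, and groups overlap in the bottom row except for Psma4 in wildtype mice.

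Averaged over the 7 beta genes and set relative to the wildtype air mean, arrays stood at 0.52 to 0.54 in deficient ozone against -0.06 to 0.03 in deficient air, and at 0.43 to 0.49 in wildtype ozone against -0.05 to 0.04 in wildtype air. The same mean over the 8 alpha genes was 0.10 to 0.18 in deficient ozone against 0.00 to 0.17 in deficient air, and -0.04 to 0.09 in wildtype ozone against -0.08 to 0.12 in wildtype air. The beta mean minus the alpha mean was 0.34 to 0.44 in deficient ozone against -0.14 to 0.02 in deficient air, and 0.38 to 0.53 in wildtype ozone against -0.09 to 0.04 in wildtype air. The rings thus shifted by unequal amounts on the same arrays, as a description of these members without a test.

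**Figure D3:**
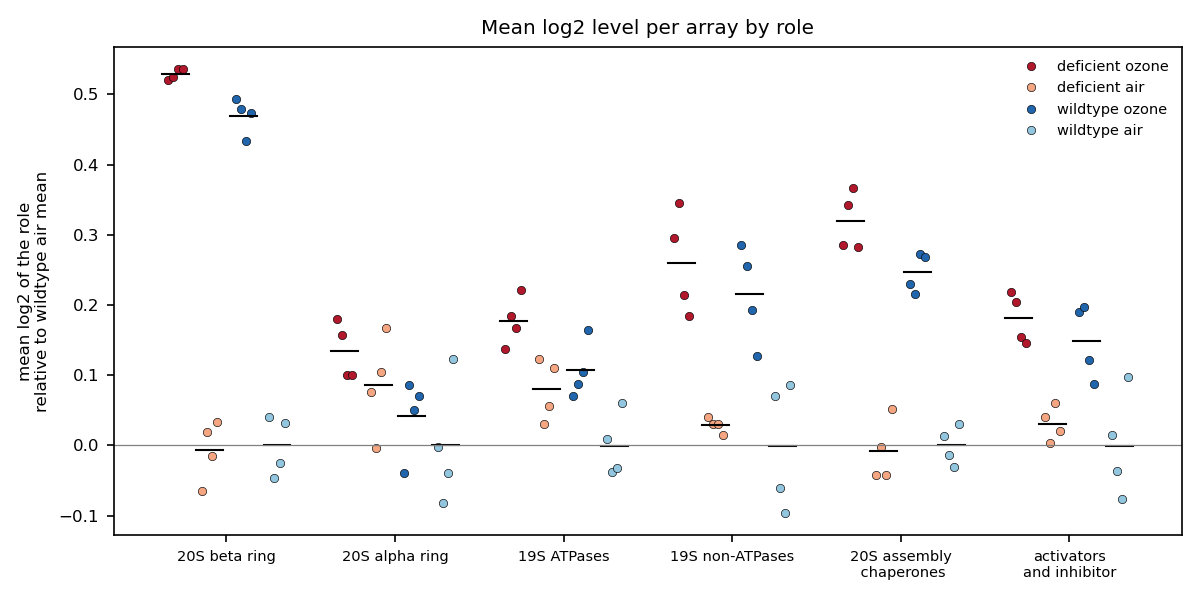
Mean log2 level of each role on each array, relative to its mean in wildtype air, with a line at each group's mean. Beta ring ozone arrays sit between 0.43 and 0.54 and alpha ring ozone arrays between -0.04 and 0.18.

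The 19S particle was mixed. Of its 6 ATPases, which unfold the substrate and thread it into the core, 2 rose in deficient and 1 in wildtype mice. Of its 14 other genes, 8 rose in deficient and 7 in wildtype mice. The shares that rose were 33.3% of the ATPases and 57.1% of the others in deficient mice, beside 15.8% of all genes, and in wildtype mice 1 of 6 is 16.7% of the ATPases and 7 of 14 the share of the others, beside 19.6% of all genes. The ATPase count in wildtype mice is thus near the background. The median differences of the ATPases were 0.14 in each genotype, and those of the other genes 0.26 in deficient and 0.18 in wildtype mice.

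Psmd3, a structural subunit of the 19S lid, had levels of 9.28, 9.49, 9.41 and 9.51 in deficient ozone and 8.65, 8.70, 8.82 and 8.66 in deficient air. Its levels were 9.49, 9.42, 9.45 and 9.44 in wildtype ozone and 8.67, 8.67, 8.75 and 8.78 in wildtype air. All ozone arrays stood well above all air arrays. The Psmd3 difference was 0.71 ± 0.0576 in deficient (adjusted p = 6.33e-07, limma) and 0.73 ± 0.0576 in wildtype mice (adjusted p = 6.81e-07, limma).

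Psmd13 and Psmd8, other lid subunits, rose by 0.47 and 0.38 in deficient and by 0.47 and 0.39 in wildtype mice. Psmd1 and Psmd2, the large scaffold subunits of the base, rose by 0.40 and 0.41 in deficient and by 0.44 and 0.37 in wildtype mice. Psmd14, the deubiquitinase that strips ubiquitin from substrates, rose by 0.29 in deficient and 0.32 in wildtype mice. Psmd11, a lid subunit that braces the particle against the core, rose by 0.23 in deficient and 0.20 in wildtype mice. The wildtype call of Psmd11 was lost without wildtype air M2 or F1 or wildtype ozone M1, M2 or F1 (limma adjusted p of 0.0505 to 0.0637), and the deficient call of Psmd14 without deficient air M2 or deficient ozone M2 (0.0569 to 0.0605).

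Psmd4, a ubiquitin receptor, had the smallest difference of the 14. It stood at 10.70, 10.70, 10.71 and 10.64 in deficient ozone and 10.65, 10.68, 10.73 and 10.60 in deficient air. It stood at 10.65, 10.64, 10.60 and 10.53 in wildtype ozone and 10.63, 10.47, 10.59 and 10.68 in wildtype air. The groups overlapped, and the Psmd4 difference was 0.0268 (95% interval -0.09 to 0.15) in deficient and 0.0117 (-0.11 to 0.13) in wildtype mice. Psmd5, Psmd9 and Psmd10 are known as chaperones that assemble the base. Of these only Psmd9 was called, by 0.28 ± 0.0808 in deficient mice (adjusted p = 0.0150, limma), beside 0.16 ± 0.0808 in wildtype mice (adjusted p = 0.132, limma), and that call was lost without deficient ozone M2 (adjusted p = 0.0553, limma). Psmd6, Psmd7 and Psmd12, further lid subunits, were not called, with differences of -0.15 to 0.10.

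Among the ATPases, Psmc5 stood at 10.35, 10.30, 10.46 and 10.40 in deficient ozone and 10.08, 10.26, 10.09 and 10.09 in deficient air. It stood at 10.41, 10.35, 10.29 and 10.31 in wildtype ozone and 10.05, 10.01, 10.11 and 10.14 in wildtype air. The groups did not overlap, and deficient air M2 was the air array nearest to ozone. The Psmc5 difference was 0.25 ± 0.0597 in deficient (adjusted p = 0.00525, limma) and 0.26 ± 0.0597 in wildtype mice (adjusted p = 0.00346, limma). Psmc3 was called in deficient mice alone, at 0.18 ± 0.0643 (adjusted p = 0.0422, limma), beside 0.12 ± 0.0643 in wildtype mice (adjusted p = 0.145, limma). That call was lost when any of 7 arrays was left out, namely deficient air M1, F1 or F2, deficient ozone M1, F1 or F2, or wildtype ozone M2 (limma adjusted p of 0.0504 to 0.130).

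Psmc6 had the smallest mean difference of the ATPases over both genotypes. It stood at 10.01, 10.05, 9.96 and 9.93 in deficient ozone and 10.12, 9.99, 10.02 and 10.12 in deficient air. Its levels were 9.97, 9.95, 9.97 and 9.97 in wildtype ozone and 10.05, 10.04, 9.86 and 10.04 in wildtype air. The groups overlapped in both genotypes, and the differences were -0.0748 in deficient and -0.0334 in wildtype mice. For Psmc1, Psmc2 and Psmc4 the differences were -0.0606, 0.0935 and 0.20 in deficient and -0.0638, 0.15 and 0.20 in wildtype mice, none called. Psmc2 was called in wildtype mice when wildtype air F2 or deficient air M1 was left out (limma adjusted p of 0.0400 to 0.0447).

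The chaperones of 20S assembly work as pairs, Psmg1 with Psmg2 and Psmg3 with Psmg4, in building the alpha ring. In each genotype 3 of the 4 rose, beside 15.8% of all genes in deficient and 19.6% in wildtype mice. With 4 genes such a share is coarse. Psmg4 stood at 8.48, 8.46, 8.67 and 8.47 in deficient ozone and 7.77, 8.06, 8.02 and 8.02 in deficient air, and at 8.54, 8.34, 8.51 and 8.56 in wildtype ozone and 7.90, 7.82, 7.89 and 8.03 in wildtype air. No ozone array fell among the air arrays. The Psmg4 difference was 0.55 ± 0.0705 in deficient (adjusted p = 4.84e-05, limma) and 0.58 ± 0.0705 in wildtype mice (adjusted p = 3.63e-05, limma). Its partner Psmg3 rose by 0.41 in deficient and 0.32 in wildtype mice, and Psmg1 rose by 0.28 in deficient and 0.24 in wildtype mice.

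Psmg2, the partner of Psmg1, stood at 8.10, 8.03, 7.98 and 7.76 in deficient ozone and 7.88, 7.95, 7.72 and 8.06 in deficient air. It stood at 7.80, 7.87, 7.95 and 7.84 in wildtype ozone and 8.10, 8.10, 7.90 and 7.96 in wildtype air. The groups overlapped. The Psmg2 difference was 0.0672 ± 0.0806 in deficient and -0.15 ± 0.0806 in wildtype mice, and neither was called.

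Of the activators and the inhibitor, 1 of 4 rose in each genotype, a count too small to set against the 15.8% of all genes that rose in deficient and 19.6% in wildtype mice. Psme1, a subunit of the activator that is induced by interferon, stood at 11.40, 11.28, 11.39 and 11.26 in deficient ozone and 10.96, 10.91, 11.14 and 11.11 in deficient air. It stood at 11.32, 11.25, 11.27 and 11.35 in wildtype ozone and 10.93, 10.98, 11.07 and 11.08 in wildtype air. The groups did not overlap, and the Psme1 difference was 0.30 ± 0.0577 in deficient (adjusted p = 0.00105, limma) and 0.28 ± 0.0577 in wildtype mice (adjusted p = 0.00174, limma).

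Psme4, an activator known from spermatogenesis and the nucleus, stood at 9.39, 9.37, 9.29 and 9.35 in deficient ozone and 9.44, 9.34, 9.39 and 9.31 in deficient air. It stood at 9.28, 9.35, 9.27 and 9.31 in wildtype ozone and 9.25, 9.25, 9.15 and 9.55 in wildtype air. The groups overlapped, and the Psme4 difference was -0.0202 in deficient and 0.00203 in wildtype mice. Psme3, a nuclear activator, and Psmf1, the inhibitor, had differences of 0.17 and 0.14 in deficient and 0.19 and 0.13 in wildtype mice, none called. Without wildtype air F2, Psme3 was called in wildtype mice at 0.25 (adjusted p = 0.0259, limma). Of the binding partners, Psmc3ip, which acts in meiotic recombination, rose by 0.34 in both genotypes, and Psme3ip1 did not pass the test. Without wildtype air F1, Psme3ip1 was called lower in wildtype mice, at -0.17 (adjusted p = 0.0489, limma).

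**Figure D4:**
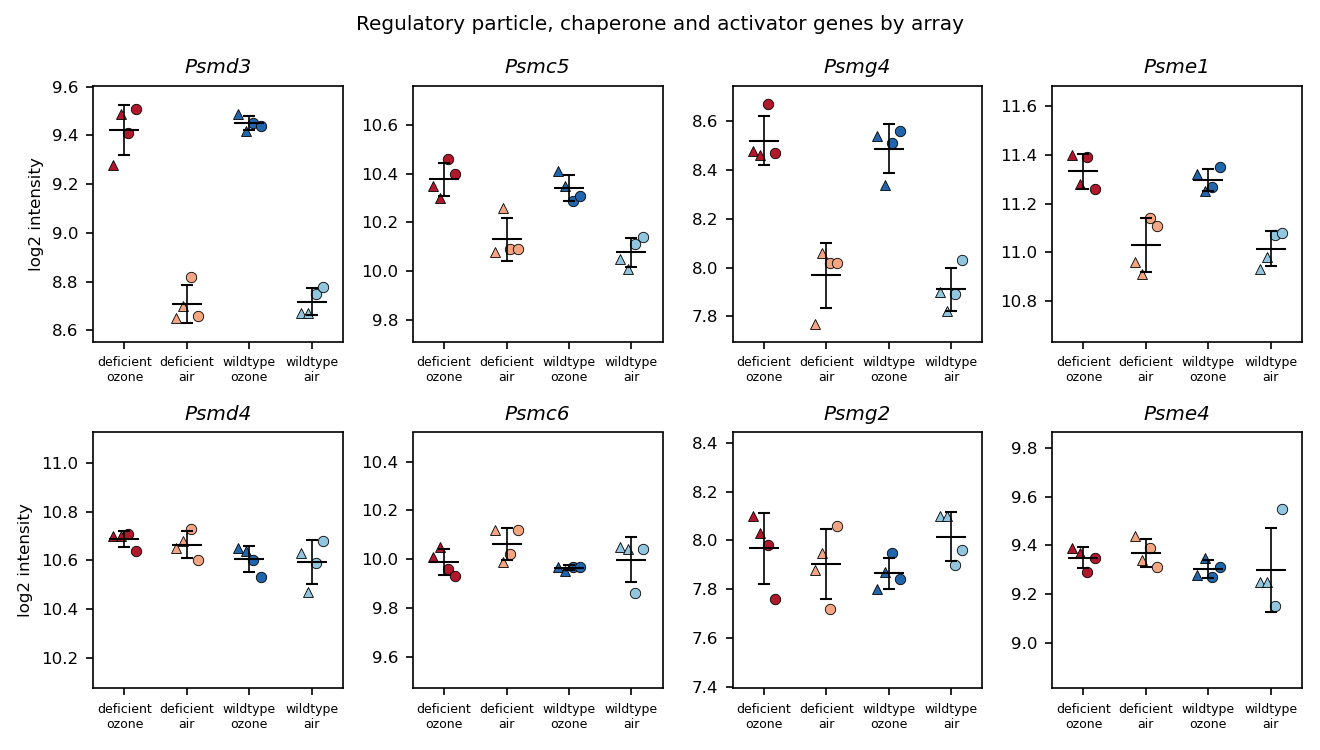
Log2 intensity on each array of the gene with the largest (top) and the smallest (bottom) mean ozone difference over both genotypes among the 19S non-ATPases, 19S ATPases, assembly chaperones and activators. Triangles stand for males and circles for females, with lines at group means and bars of 1 SD (n = 4). Ozone and air groups are separate in the top row and overlap in the bottom row.

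No member was called between the genotypes. For deficient against wildtype mice in ozone, 0 members were called by limma, where 0.0161% of all genes were higher and 0.0% lower, and 2 passed an unadjusted p of 0.05, against 11.2% of all genes. In air 0 members were called, where 0.00807% of all genes were higher and 0.0% lower, and 0 passed an unadjusted p of 0.05, against 5.91% of all genes. For the difference of the ozone differences, 0 members were called, where 0.0% of all genes were higher and 0.0% lower, and 0 passed an unadjusted p of 0.05, against 4.88% of all genes. The largest such value was that of Psmb2, at 0.23 ± 0.115 more in deficient mice with a 95% interval of -0.02 to 0.47 (adjusted p = 0.983, limma). For Psmb5, Psmb6 and Psmb7 the intervals were -0.07 to 0.27, -0.07 to 0.24 and -0.12 to 0.32. Genotype differences in ozone ran from -0.07 to 0.21 over the 45, with Psma5 at the top (0.21 ± 0.0723, adjusted p = 0.298, limma).

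Between the sexes, 1 member was called: Psma3 was lower in males, by -0.15 ± 0.0396 (adjusted p = 0.0398, limma). It stood at 11.51 and 11.57 in males and 11.59 and 11.66 in females of deficient ozone, at 11.46 and 11.35 against 11.59 and 11.67 in deficient air, at 11.42 and 11.45 against 11.57 and 11.60 in wildtype ozone, and at 11.38 and 11.29 against 11.38 and 11.56 in wildtype air. Males were not above females in any group. Over all genes 2.55% were higher and 3.11% lower in males, so 1 of 45 is near the background, and the call was lost in 13 of the 16 fits that left out a single array (limma adjusted p of 0.0530 to 0.0741 in those). It was kept without wildtype air F1, deficient ozone M2 or deficient ozone F1. For ozone by sex, 0 members were called by limma (0.0% of all genes higher and 0.00807% lower), and 2 passed an unadjusted p of 0.05, against 8.65% of all genes.

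Genes with several probe sets did not always give one answer. The 45 genes had 82 probe sets, tested together with all 20380 one-symbol probe sets. Of the 37 not used above, 7 rose and 4 fell in deficient mice, where 14.8% of all probe sets rose and 15.5% fell. In wildtype mice 7 rose and 5 fell, where 18.3% of all probe sets rose and 18.9% fell. Of the 11 beta probe sets, 8 rose in each genotype, and of the 16 alpha probe sets 1 rose in each, a second one for Psma7 at 0.25 in deficient and 0.26 in wildtype mice.

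The second probe set of Psmc4 rose by 0.47 in deficient and 0.48 in wildtype mice, and that of Psmc2 by 0.22 in deficient and 0.20 in wildtype mice, while the brighter ones of these ATPases did not pass. A second Psme3 probe set rose by 0.63 in deficient and 0.54 in wildtype mice. Other disagreements pointed downward. Psmc6 fell on both further probe sets, at -0.37 and -0.51 in deficient and -0.50 and -0.30 in wildtype mice. Psmf1 fell on one further probe set, at -0.57 in deficient and -0.80 in wildtype mice, and on another in wildtype mice alone (-0.49). Psmb1 was called in opposite directions in deficient mice, 0.27 on the probe set used and -0.20 ± 0.0705 on a dim further one (adjusted p = 0.0471, limma over probe sets). Psme4 fell on a further probe set in wildtype mice (-0.25). Which transcripts each probe set detects was not tested.

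The related genes were described from 3 lists. Of the immunoproteasome and peptide loading genes, which process antigens, 11 of 12 were measured. In deficient mice 3 rose and 1 fell, where 15.8% of all genes rose and 14.6% fell. In wildtype mice 0 rose and 1 fell, where 19.6% of all genes rose and 17.1% fell. Psmb8, which replaces Psmb5 in the immunoproteasome, stood at 10.25, 9.91, 10.60 and 10.04 in deficient ozone against 9.50, 9.60, 9.79 and 9.90 in deficient air, and at 9.99, 9.67, 9.90 and 9.71 in wildtype ozone against 9.76, 9.63, 9.66 and 9.63 in wildtype air. The groups were separate in deficient mice by a narrow margin and overlapped in wildtype mice. The Psmb8 difference was 0.50 ± 0.123 in deficient (adjusted p = 0.00597, limma) and 0.15 ± 0.123 in wildtype mice (adjusted p = 0.378, limma).

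Psmb10, which replaces Psmb7, had a difference of 0.26 in deficient (adjusted p = 0.0355, limma) and 0.0332 in wildtype mice, and Psmb9, which replaces Psmb6, had 0.34 in deficient (adjusted p = 0.0649, limma) and -0.0705 in wildtype mice. The Psmb10 call was lost without deficient air M1, M2 or F2 or deficient ozone M1 or F1 (limma adjusted p of 0.0527 to 0.126), and Psmb9 was called at 0.48 without deficient ozone F2 (adjusted p = 0.00696, limma). Tap2, a peptide transporter, rose by 0.37 in deficient mice and differed by 0.0675 in wildtype mice. Erap1, which trims peptides, fell by 0.19 in deficient and 0.39 in wildtype mice. No gene of this list was called for the difference of the ozone differences, so a response that differs between genotypes is not shown.

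Of the associated factors and transcription regulators, 18 of 21 were measured. In deficient mice 6 rose and 5 fell, and in wildtype mice 6 rose and 6 fell, beside the same shares of all genes (15.8% and 14.6% in deficient, 19.6% and 17.1% in wildtype mice). Nfe2l1, the transcription factor of proteasome genes, stood at 10.22, 10.12, 10.58 and 10.42 in deficient ozone against 9.34, 9.93, 9.69 and 9.51 in deficient air, and at 10.30, 10.27, 10.31 and 10.55 in wildtype ozone against 9.73, 9.90, 9.83 and 9.63 in wildtype air. No ozone array reached down to the air arrays. The Nfe2l1 difference was 0.72 ± 0.120 in deficient (adjusted p = 0.000403, limma) and 0.58 ± 0.120 in wildtype mice (adjusted p = 0.00169, limma).

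Nfe2l2, the related factor of the oxidative stress response, overlapped between exposures, with differences of 0.0329 in deficient and -0.0491 in wildtype mice. Ngly1, the enzyme that removes sugars from the Nfe2l1 protein, fell by 0.35 in deficient and 0.36 in wildtype mice. Nfe2l3, a further relative, fell by 0.51 in deficient mice and was at -0.31 in wildtype mice, not called. The small Maf partners Maff and Mafk rose by 0.38 and 0.23 in deficient and by 0.36 and 0.24 in wildtype mice, and Mafg by 0.23 in deficient mice. The Maff calls were lost without 3 arrays each (deficient air M1, deficient ozone M2 or F2; wildtype air M2 or F1, wildtype ozone M2; limma adjusted p of 0.0565 to 0.0898), and the Mafg call without any of 11 arrays of all 4 groups (0.0515 to 0.168).

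Pomp, the chaperone of the beta ring, rose by 0.24 in deficient and 0.31 in wildtype mice. Ipo9, which carries proteasomes into the nucleus, rose by 0.50 in deficient and 0.34 in wildtype mice, the second call lost without wildtype ozone M1 or F1 (limma adjusted p of 0.0501 to 0.0527). The proteasome-bound deubiquitinase Usp14 fell by 0.23 in deficient and 0.25 in wildtype mice. Zfand5, which binds the proteasome, and Ublcp1, a proteasome phosphatase, fell by 0.32 and 0.29 in deficient mice and each fell by 0.35 in wildtype mice. In wildtype mice alone, Ube3c rose by 0.21 and Uchl5 and Akirin2 fell by 0.22 and 0.19, with no call for the difference between genotypes. The Uchl5 call was lost without wildtype air M1 or F2 or wildtype ozone M1 or F2 (limma adjusted p of 0.0579 to 0.114).

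Of the ubiquitin, shuttle and segregase genes, 9 of 16 were measured. In deficient mice 4 rose and 1 fell, and in wildtype mice 3 rose and 1 fell, beside 15.8% of all genes higher and 14.6% lower in deficient and 19.6% higher and 17.1% lower in wildtype mice. Vcp, the segregase that extracts ubiquitin-tagged proteins, stood at 11.80, 11.83, 11.97 and 11.91 in deficient ozone against 11.21, 11.39, 11.51 and 11.39 in deficient air, and at 11.86, 11.82, 11.92 and 11.91 in wildtype ozone against 11.30, 11.30, 11.55 and 11.46 in wildtype air. The exposures were separate in both genotypes, and Vcp rose by 0.50 in deficient and 0.48 in wildtype mice. Its second, dimmer probe set fell, at -0.51 in deficient and -0.71 in wildtype mice. The Vcp cofactor Nploc4 rose by 0.25 in deficient and 0.24 in wildtype mice, and the shuttle Rad23b by 0.34 in deficient and 0.32 in wildtype mice. A second Rad23b probe set was not called, at 0.19 in deficient and 0.12 in wildtype mice. The shuttle Ubqln4 rose by 0.30 in deficient mice, a call lost without deficient air M1, F1 or F2 or deficient ozone M2, F1 or F2 (limma adjusted p of 0.0603 to 0.130), and Ubqln2 fell by 0.34 in deficient and 0.38 in wildtype mice.

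**Figure D5:**
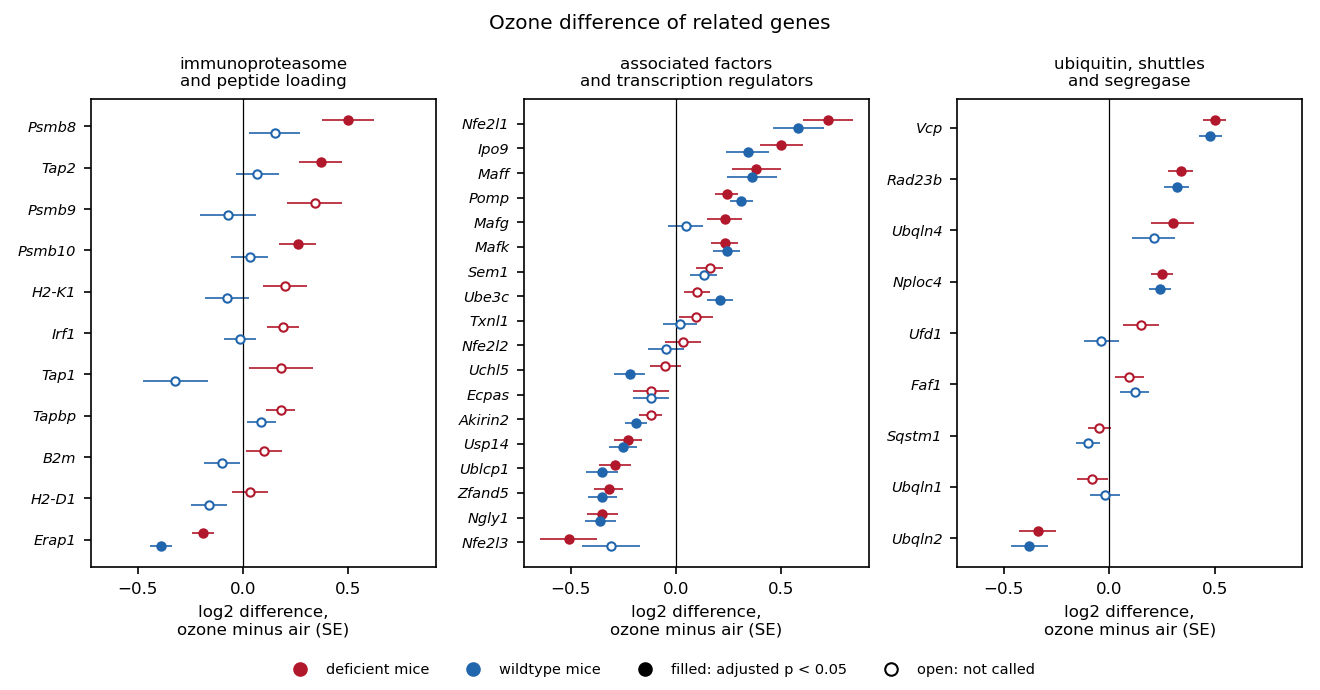
Log2 difference between ozone and air arrays for the measured genes of the 3 related lists, deficient mice in red and wildtype mice in blue, bars giving the SE of the fit and filled points a call at adjusted p under 0.05. Nfe2l1 is highest in the middle panel, and Psmb8, Psmb10 and Tap2 are filled in deficient mice alone.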

How the data were processed

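Each deposited value is the intensity of 1 probe set on 1 array, on a linear scale, and the authors made it with RMA (background correction, normalization between arrays and summary of probes) per the submitters' processing notes. Its software is not stated there. Log2 values had been foreseen, so the log2 was taken. Of 22690 probe sets, 64 were controls, 691 named several symbols and 1555 none. The remaining 20380 named 1 of 12393 genes in the platform annotation, which can be old. Intensities ran from 11.1 to 26974.7. No detection calls were used, and normalization hides any shift common to all RNA. The number of arrays limits the precision. No label says whether mice of a group shared a litter or day, so p-values measure the spread between these mice.

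All 16 arrays entered a single limma fit (version 3.58.1, R 4.3.3, lmFit and eBayes) with 4 groups and sex. Ozone by sex came from a fit of 8 groups that also split the sexes. The method was tested on simulated data, in which fewer genes changed than were called here. Of log2 changes of 0.25 it recovered 12% in the wildtype and 24% in the deficient comparison. Of changes of 0.5 it recovered 70% in the wildtype and 84% in the deficient comparison. False calls were 4.83% of the wildtype and 5.13% of the deficient calls. Small differences can thus go uncalled. All 45 symbols matched RefSeq's GRCm38.p6 gene table. The genes, the lists, the alternatives and the naming rule were chosen with earlier results of these data known. Per-array values are given for the 3 catalytic subunits, for the genes with the largest and smallest mean ozone difference of each role, and for members called for sex or with probe sets called in opposite directions. Psma2, Psma6 and Psma8 were named after their values were seen. Alternatives were other normalizations, filters, probe set rules, priors, weights and thresholds, no sex term, a block, each sex alone, the compared arrays alone and arrays left out. Python 3.11.15 with matplotlib 3.10.9 drew the figures.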

Additional observations from a re-analysis of the deposited data

Results flagged for a closer look

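For the 45 genes, 180 groups of 4 arrays were examined for an array that stood apart by Dixon's criterion for its gap to the nearest of the others, and 11 had one; chance gives about 1 in 20 groups. In deficient ozone these were Psmc1 on M2 at a log2 level of 10.08 (the others at 9.98 to 9.99), Psmd4 on F2 at 10.64 (others 10.70 to 10.71) and Psmg4 on F1 at 8.67 (others 8.46 to 8.48). In deficient air they were Psmc5 on M2 at 10.26 (others 10.08 to 10.09), Psmd5 on M1 at 8.76 (others 8.59 to 8.61) and Psmg4 on M1 at 7.77 (others 8.02 to 8.06). In wildtype ozone they were Psmb2 on M1 at 10.22 (others 10.01 to 10.04) and Psmd11 on F2 at 10.95 (others 11.09 to 11.12). In wildtype air they were Psmb2 on M1 at 9.46 (others 9.14 to 9.18), Psma7 on F2 at 10.42 (others 10.20 to 10.24) and Psmc6 on F1 at 9.86 (others 10.04 to 10.05). Psmb2, Psmc5 and Psmg4 were called for ozone in both genotypes in every fit that left out 1 array.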

How the results depend on the processing

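Most ozone calls of members were higher under each setting. With 1 array left out, 20 to 22 members were called in deficient and 19 to 23 in wildtype mice, against 22 and 20 with all arrays, and the beta ring counts stayed at 7 in each of those fits. With females alone 13 members were called in deficient and 8 in wildtype mice (4 of them beta genes). With every probe set on its own 33 of 82 probe sets were called in deficient mice (29 higher, 4 lower), where 14.8% of all probe sets rose and 15.5% fell. In wildtype mice 32 of 82 were called (27 higher, 5 lower), where 18.3% rose and 18.9% fell. For the other settings the shares of all genes called were not compared. Those counts thus cannot tell a weaker result of the members from fewer calls over all genes. With 1 array left out, the alpha ring count was 0 to 1 in each genotype. It was 1 in both genotypes with every probe set on its own and with the replicate block, and 1 in wildtype mice with a common median, with array weights and with the arrays of the compared groups alone. With the replicate block the genes were Psma6 in deficient (adjusted p = 0.0428, limma) and Psma2 in wildtype mice (adjusted p = 0.0481, limma). The male against female count was 1 with all arrays and 0 to 2 with 1 left out; it was 3 with further quantile normalization, 5 with every probe set on its own, 2 with a common median, without the dimmest 25% of genes, with an intensity trend and with array weights, and 0 at an adjusted p under 0.01, at a fold of at least 1.2, and with 3 air arrays that held muscle, squamous or fat markers left out, alone or together with deficient ozone F2. Counts for genotype, its interaction with ozone and ozone by sex were 0 in every fit run.

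With the mean of all probe sets, Psmf1 was called lower at -0.20 in deficient and -0.31 in wildtype mice, and Vcp stood at -0.00539 and -0.12, both opposite to the brightest probe set, because the further probe sets point down. Over the named genes, 4863 of 5168 values under other settings kept their side of the threshold (103 of them uncalled values of opposite sign), 244 lost a call, 57 gained one and the 4 just given changed sign. For the beta genes, 425 of 434 kept it and 9 lost a call. Deviations of same-numbered mice from their group means correlated at r of -0.04 to 0.35, over 0 in 23 of 24 pairs and over 0.1 in 18. Same-numbered mice share their sex, which was not removed from these deviations, so the correlations cannot tell a pairing from shared sex. The numbers were not taken to pair the samples. With the replicate block 22 members were called in deficient and 21 in wildtype mice. Without detection calls, how far dim probe sets such as those of Psma8 stood above background is unknown. Changes of all RNA together are removed by normalization.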

Other observations

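Psme2, which pairs with Psme1 in the same activator, shares its probe set with Psme2b. That probe set had log2 levels of 10.94 to 11.14 in deficient ozone against 10.82 to 11.03 in deficient air, and of 10.81 to 10.96 in wildtype ozone against 10.81 to 10.94 in wildtype air (n = 4 each), with overlapping ranges in both genotypes, and it was not tested.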
